A study of Homo sapiens with 4 samples.

Results

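The integrin subunits of HCT116 colon carcinoma cells were described across 4 lines: 10 genes, chosen by name, of 24916 in the table. The members are the alpha subunits ITGA2, ITGA3, ITGA5, ITGA6 and ITGAV and the beta subunits ITGB1, ITGB4, ITGB5, ITGB6 and ITGB8, each found by its Ensembl identifier. HCT116 is an established human colon adenocarcinoma line. CST5 clone 20 and CST5 clone 9 were transfected with CST5, whose product, cystatin D, is secreted and inhibits cysteine proteases. Mock-transfected and un-transfected HCT116 cells served as controls. Each CST5 line is a single clone, so CST5 and clonal selection cannot be told apart. The labels do not say whether the mock cells were cloned or pooled. RNA from each line was measured on 1 Affymetrix array, which gives 2 arrays per group.

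Integrins are cell surface receptors built from an alpha and a beta subunit, which tie the extracellular matrix to the cytoskeleton. In gut epithelium, ITGA2 with ITGB1 binds collagen, ITGA3 with ITGB1 and ITGA6 with ITGB1 or ITGB4 bind laminin, and ITGA5 with ITGB1 binds fibronectin. ITGA6 with ITGB4 forms the core of the hemidesmosome. ITGAV pairs with several beta subunits, among them ITGB5, a vitronectin receptor chain, and ITGB6 and ITGB8, whose dimers bind and release latent TGF-beta.

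Of the 10 integrin genes, ITGA6, ITGB1, ITGB4 and ITGB5 read lower in both CST5 clones than in both controls, and ITGB8 and ITGAV read higher. These are 6 of the 9 members above the filter on dim genes, and 48.4% of all genes above it likewise had no overlap in one direction or the other. The largest mean log2 differences were -1.22 for ITGB4, -0.83 for ITGA6 and 1.12 for ITGB8, or 2.33-fold, 1.77-fold and 2.17-fold. ITGB4 was low chiefly in clone 9, whereas the ITGB8 values of the clones were nearly equal. None of these differences passed the threshold after adjustment over all genes.

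Values are on a scale read as log2 from its range, since the log base is not stated, and every fold rests on that reading. A gene was tested if it exceeded the 40th percentile of its array on at least 2 arrays, which 15131 genes and 9 of the 10 members did. Array medians lay between 4.09 and 4.21. The CST5 clones were compared with the controls in limma, with Benjamini-Hochberg adjustment over all 15131 genes and a threshold of 0.05. No member passed, and 2 genes, or 0.0132% of those tested, did. At an unadjusted p under 0.05, 3 members were lower (ITGA6, ITGB1 and ITGB5) and 1 was higher (ITGB8), beside 6.62% and 6.91% of all tested genes. Nothing shows repeat cultures of a line, so p-values reflect the spread of the 4 arrays alone, and 4 arrays limit the precision of every value. In RNA of a whole culture, fewer cells that express a gene and less RNA per cell cannot be told apart. Since only the members could be paired with names, markers of colon epithelium and of other cell types, the level of CST5 and the wider integrin pathway were not analysed here.

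RefSeq promoter windows on GRCh38.p14 matched 8 of the 10 members, and ITGA3 and ITGB4 had none. Windows of 250 bases before the most upstream listed start are shown for ITGA6 and ITGB8, the members whose clones stood clear of both controls by the widest margin in each direction. Capitals mark GC boxes (GGGCGG on either strand) and E-boxes (CANNTG, the same on both strands).
ITGA6, chr2:172427086-172427335, plus strand: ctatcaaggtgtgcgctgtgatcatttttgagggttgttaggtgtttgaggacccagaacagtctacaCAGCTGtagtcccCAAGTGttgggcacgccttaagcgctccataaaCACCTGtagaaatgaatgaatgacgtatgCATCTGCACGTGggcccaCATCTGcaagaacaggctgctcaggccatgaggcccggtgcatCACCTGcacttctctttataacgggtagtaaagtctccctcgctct
ITGB8, chr7:20330650-20330899, plus strand: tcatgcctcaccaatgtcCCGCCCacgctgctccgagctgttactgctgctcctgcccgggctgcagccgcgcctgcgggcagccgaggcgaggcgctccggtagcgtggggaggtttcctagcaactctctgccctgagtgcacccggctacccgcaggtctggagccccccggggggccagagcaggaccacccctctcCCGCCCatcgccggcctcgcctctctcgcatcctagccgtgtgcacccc

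The ITGA6 window held 7 E-boxes and 0 GC boxes, with a GC content of 50.8%. The ITGB8 window held 2 GC boxes and 0 E-boxes, with a GC content of 71.2%. These are matches of letters and not binding sites, and the table lists a second, more downstream ITGA6 window that is not shown. Among the 8 matched members, 5 windows held a GC box and 3 held an E-box. Of 27305 genes with a window, 42.2% held a GC box and 62.2% held an E-box. GC content over the 8 members ran from 30.0% for ITGB6 to 78.4% for ITGB1, with a median of 57.6% over all genes.

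The laminin receptor chains ITGA6 and ITGB4 were both lower in the clones. ITGA6 (ENSG00000091409) read 7.69 in clone 20 and 7.26 in clone 9, against 8.15 in mock and 8.46 in un-transfected cells. The groups did not overlap, and clone 9 was the lowest line. The mean was 7.48 ± 0.31 in the clones and 8.30 ± 0.22 in the controls (SD, n = 2 each), a log2 difference of -0.83 with a standard error of 0.19 and a 95% interval of -1.31 to -0.34 (limma, adjusted p = 0.284). The smallest of the 4 clone-to-control differences, clone 20 minus mock, was -0.45, and the largest, clone 9 minus un-transfected, was -1.20.

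ITGB4 (ENSG00000132470), the partner of ITGA6 in hemidesmosomes, read 8.68 in clone 20 and 7.10 in clone 9, against 8.96 in mock and 9.26 in un-transfected cells. Clone 9 stood far below the other lines, and clone 20 lay just below mock, by less than the gap between mock and un-transfected cells. Clone 9 was 3.62-fold below mock and 4.47-fold below un-transfected cells, while clone 20 differed from them by -0.28 and -0.58 on the log2 scale. The mean difference was -1.22 with a standard error of 0.50 and an interval of -2.50 to 0.06 (limma, adjusted p = 0.379). It was -0.43 without clone 9 and -2.01 without clone 20, so its size rested on 1 clone. In clone 9, the ITGB4 difference from un-transfected cells was 2-fold or more, as was that of ITGA6. Among all tested genes 0.800% were at least 2-fold below un-transfected cells in that clone. Against mock, ITGA6 of clone 9 was 1.85-fold lower and fell short of 2-fold. In clone 20 no tested member was 2-fold lower, beside 0.601% of genes against mock and 0.780% against un-transfected cells.

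ITGA3 (ENSG00000005884), the other laminin-binding alpha chain, read 8.71 in clone 20 and 8.30 in clone 9, against 8.50 in mock and 9.03 in un-transfected cells. The groups overlapped, with mock between the clones. The mean difference was -0.26 with an interval of -0.84 to 0.32 (limma, adjusted p = 0.624), and without un-transfected cells it was 0.0064.

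**Figure D1:**
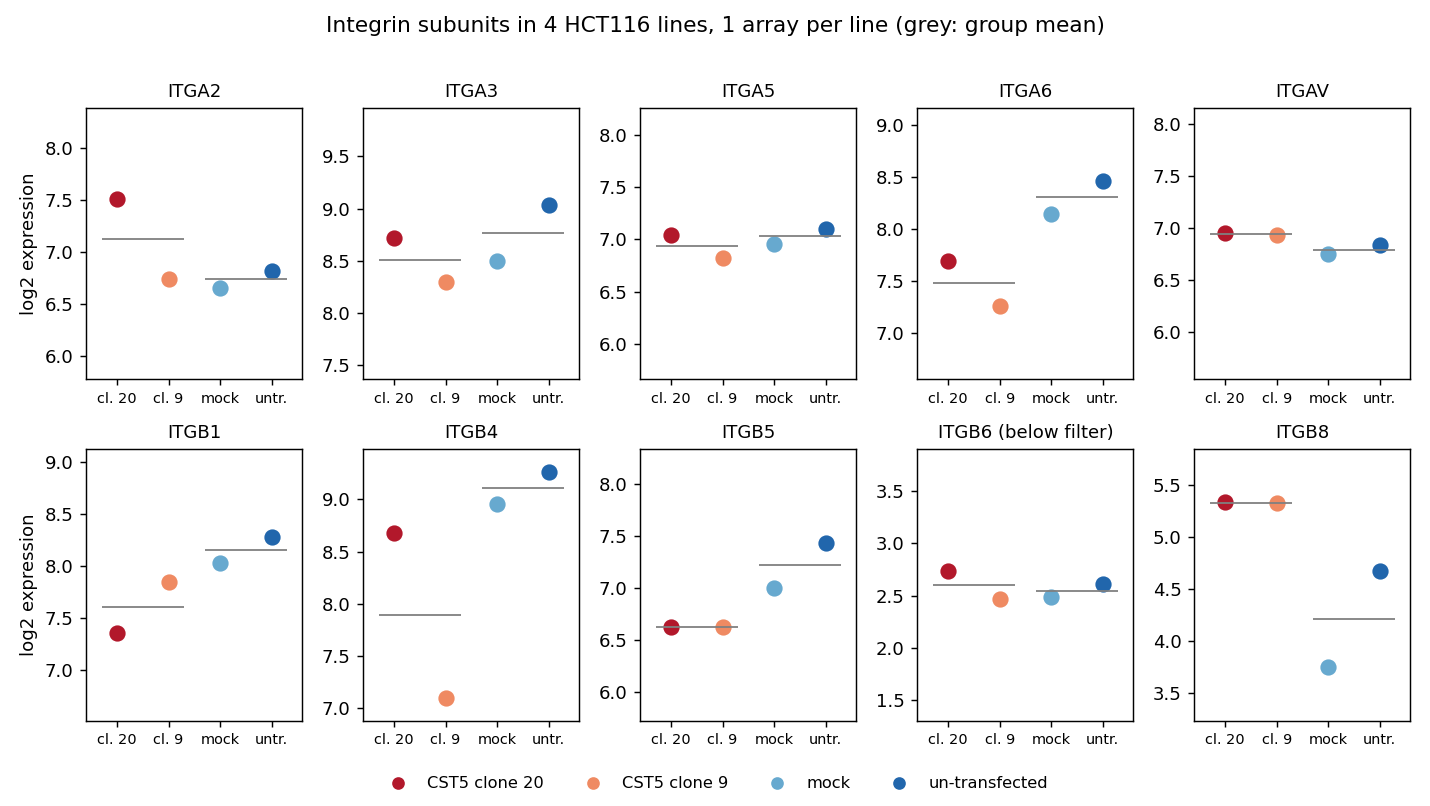
Log2 expression of each integrin subunit (vertical axis, the same span in every panel, centred on each gene's own values) in CST5 clone 20, CST5 clone 9, mock-transfected and un-transfected HCT116 cells, 1 point per array, with grey lines at the group means. ITGA6, ITGB1, ITGB4 and ITGB5 lie lower in both clones than in both controls, ITGB8 and ITGAV lie higher, and ITGB4 of clone 9, at 7.10, is the lowest of its panel by the widest margin.

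ITGB1 (ENSG00000150093), the common partner of the collagen, laminin and fibronectin alpha chains, was also lower in the clones, but with the order of the clones reversed. It read 7.36 in clone 20 and 7.84 in clone 9, against 8.03 in mock and 8.28 in un-transfected cells. The groups did not overlap, and clone 9 was 0.19 below mock, which is less than the gap of 0.25 between mock and un-transfected cells. The mean was 7.60 ± 0.34 in the clones and 8.15 ± 0.17 in the controls (SD, n = 2 each), a difference of -0.55 with a standard error of 0.20 and an interval of -1.05 to -0.06 (limma, adjusted p = 0.335). It was -0.79 without clone 9 and -0.31 without clone 20.

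In the alpha partners ITGA2 and ITGA5, unlike ITGA6, the groups overlapped. ITGA2 (ENSG00000164171), the collagen-binding chain, read 7.51 in clone 20 and 6.74 in clone 9, against 6.66 in mock and 6.82 in un-transfected cells. Clone 20 alone stood above the rest, 1.80-fold over mock and 1.61-fold over un-transfected cells, and clone 9 lay between the controls. The mean difference was 0.39 with an interval of -0.27 to 1.05 (limma, adjusted p = 0.524), and it was 0.77 without clone 9 and 0.0044 without clone 20. Clone 20 was thus the line with the lowest ITGB1 and the highest ITGA2.

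ITGA5 (ENSG00000161638), the fibronectin-binding chain, read 7.04 in clone 20 and 6.82 in clone 9, against 6.96 in mock and 7.10 in un-transfected cells. These values overlapped, and their range over the 4 lines was 0.28. The mean difference was -0.10 with an interval of -0.42 to 0.23 (limma, adjusted p = 0.754). It was 0.016 without clone 9, so no direction was given.

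Within the ITGAV family, the partner chains ITGB5 and ITGB8 differed in opposite directions. ITGAV (ENSG00000138448) itself read 6.95 in clone 20 and 6.93 in clone 9, against 6.75 in mock and 6.83 in un-transfected cells. The clones lay above both controls by 0.10 to 0.20, with a mean difference of 0.15 and an interval of -0.11 to 0.41 (limma, adjusted p = 0.529). The difference was 0.063 with each array centred on its median and 0.22 after quantile normalization. A difference of this size or larger in the same direction was found in 24.4% of tested genes.

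ITGB5 (ENSG00000082781) read 6.62 in clone 20 and 6.63 in clone 9, against 6.997 in mock and 7.43 in un-transfected cells. Both clones lay below both controls, and the controls were further apart than the clones. The controls differed 1.35-fold, more than the 1.29-fold by which each clone lay below mock. The mean difference was -0.59 with a standard error of 0.17 and an interval of -1.01 to -0.17, a 1.505-fold lower level (limma, adjusted p = 0.317). It was -0.37 without un-transfected cells and -0.81 without mock.

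ITGB8 (ENSG00000105855) read 5.33 in clone 20 and 5.33 in clone 9, against 3.75 in mock and 4.68 in un-transfected cells. Both clones lay above both controls, which themselves differed 1.90-fold, with mock the lowest line. That gap was wider than the 1.58-fold and 1.57-fold by which clone 20 and clone 9 exceeded un-transfected cells. The mean difference was 1.12 with a standard error of 0.30 and an interval of 0.35 to 1.88, a 2.17-fold higher level (limma, adjusted p = 0.313). It was 0.65 without mock and 1.58 without un-transfected cells. ITGB8 was the only member at least 1.5-fold apart in all 4 differences, with a smallest difference of 0.65. At least 1.5-fold higher in all 4 were 0.430% of tested genes. No member was 1.5-fold lower in all 4, where 0.370% of genes were. With each array centred on its median, no member reached 1.5-fold in all 4 differences. Its mock value, 3.75, was not far above the 40th percentile of that array, 3.33, and background was not measured, so the size of its difference from mock is uncertain.

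ITGB6 (ENSG00000115221) lay below the 40th percentile of every array and was not tested. It read 2.73 in clone 20 and 2.47 in clone 9, against 2.49 in mock and 2.61 in un-transfected cells, a range of 0.26 with overlapping groups.

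The ITGAV partners were also compared with ITGAV within each array, which removes any shift common to the whole array. A shift that depends on level remains. The median clone-to-control difference was 0.078 among genes at the level of ITGB8 and -0.082 among genes at that of ITGAV and ITGB5. The clone-to-control difference of ITGB5 was 0.74 below that of ITGAV on the log2 scale (beta minus alpha, -0.74), and that of ITGB8 was 0.97 above it, without overlap between the groups in either case. For ITGB1, set against ITGAV in the same way, the mean was -0.70 without overlap, and for ITGB6, below the filter, -0.098 with overlap. Such differences were not limited to ITGAV. ITGB1 was -0.94 against ITGA2 and -0.46 against ITGA5, without overlap. It was -0.29 against ITGA3 and 0.27 against ITGA6, where the groups overlapped. The share of other gene pairs without overlap was not measured. ITGB8 minus ITGB5 was 1.71 higher in the clones than in the controls, with 1.46 to 1.95 over the 4 differences. Since ITGB8 read below ITGB5 in every line, the 2 readings lay closer together in the clones. For ITGB4 against ITGA6 the mean was -0.39, and here the groups overlapped. These within-array values are descriptions of 4 arrays without a test, and they compare differences and not the levels of the subunits.

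**Figure D2:**
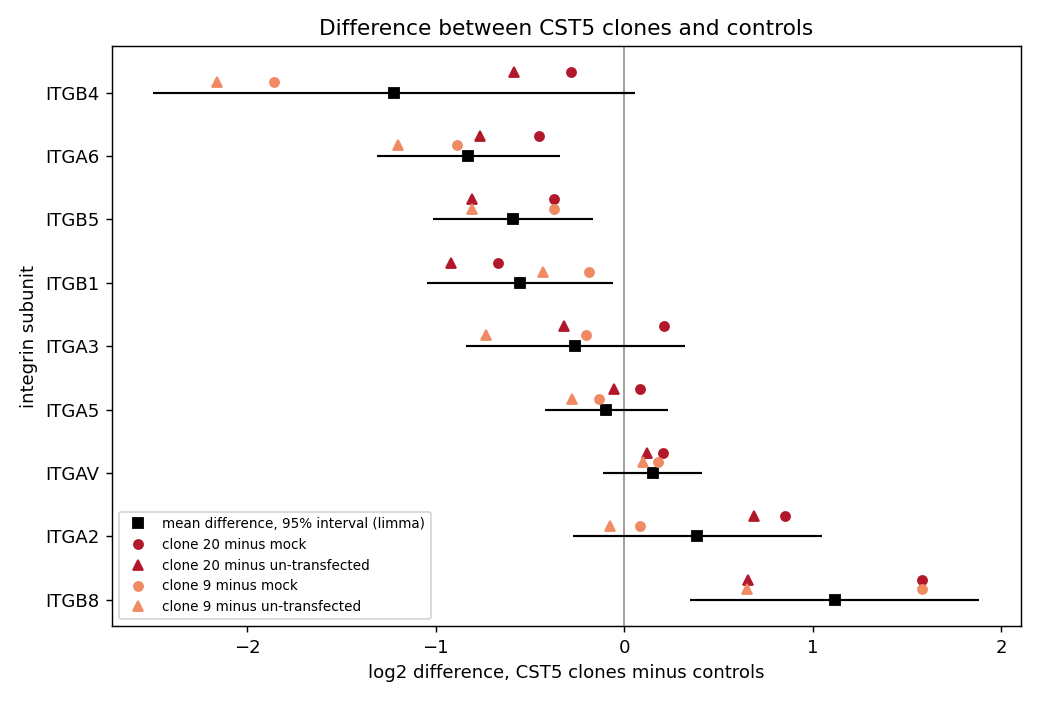
Log2 difference of the CST5 clones minus the controls (horizontal axis) for the 9 tested integrin subunits: black squares with lines give the mean and its 95% interval from limma, and coloured points the 4 single-array differences, with clone 20 in the row above clone 9. The interval lies below 0 for ITGA6, ITGB5 and ITGB1 and above 0 for ITGB8, without adjustment for the number of genes, and the ITGB4 interval, -2.50 to 0.06, is the widest.

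Each clone was also set against each control, as single arrays that share lines and have no test. Against mock, clone 20 was at least 1.5-fold lower in ITGB1, as were 3.34% of all tested genes, and higher in ITGA2 and ITGB8, as were 3.55%. Against un-transfected cells, clone 20 was lower in ITGA6, ITGB1 and ITGB5, beside 3.44% of genes, and higher in ITGA2 and ITGB8, beside 2.68%. Clone 9 was lower than mock in ITGA6 and ITGB4, beside 3.26%, and higher in ITGB8, beside 3.11%. Clone 9 was lower than un-transfected cells in ITGA3, ITGA6, ITGB4 and ITGB5, beside 3.01%, and higher in ITGB8, beside 2.60%. ITGB8 therefore passed 1.5-fold in all 4 pairings and ITGA6 in 3. ITGB1 and ITGA2 passed it in both pairings of clone 20, ITGB4 in both pairings of clone 9, ITGB5 in both pairings with un-transfected cells, and ITGA3 in clone 9 against un-transfected cells. For ITGB4, clone 20 minus un-transfected, at -0.58, fell just short of 1.5-fold, and the difference between the clones was not tested.

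As a group, the tested integrin genes were set beside all tested genes. The clone values lay wholly below the control values in 4 of 9 members, beside 25.1% of all genes, and wholly above in 2 of 9, beside 23.3%. The median log2 difference was -0.26 over the 9 members and -0.0056 over all genes, and the median size without regard to sign was 0.55 and 0.15. A difference as low as that of ITGB4 was reached by 16 genes, as low as that of ITGA6 by 87, and one as high as that of ITGB8 by 29 of the 15131. The 9 members are a list chosen with earlier results of these data known and were not tested as a list.

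The arrays of the clones read slightly lower than the controls for bright genes and slightly higher for dim ones. All 24916 genes were divided by mean level into 10 classes of equal size. The 8 brighter members lay in classes 9 and 10, whose median differences were -0.082 and -0.086, and ITGB8 lay in class 6, with a median difference of 0.078. Under the 3 other scalings, the 2 other filters and the 2 other priors tried, the mean differences were -0.91 to -0.74 for ITGA6, -1.31 to -1.12 for ITGB4 and 1.03 to 1.12 for ITGB8.

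**Figure D3:**
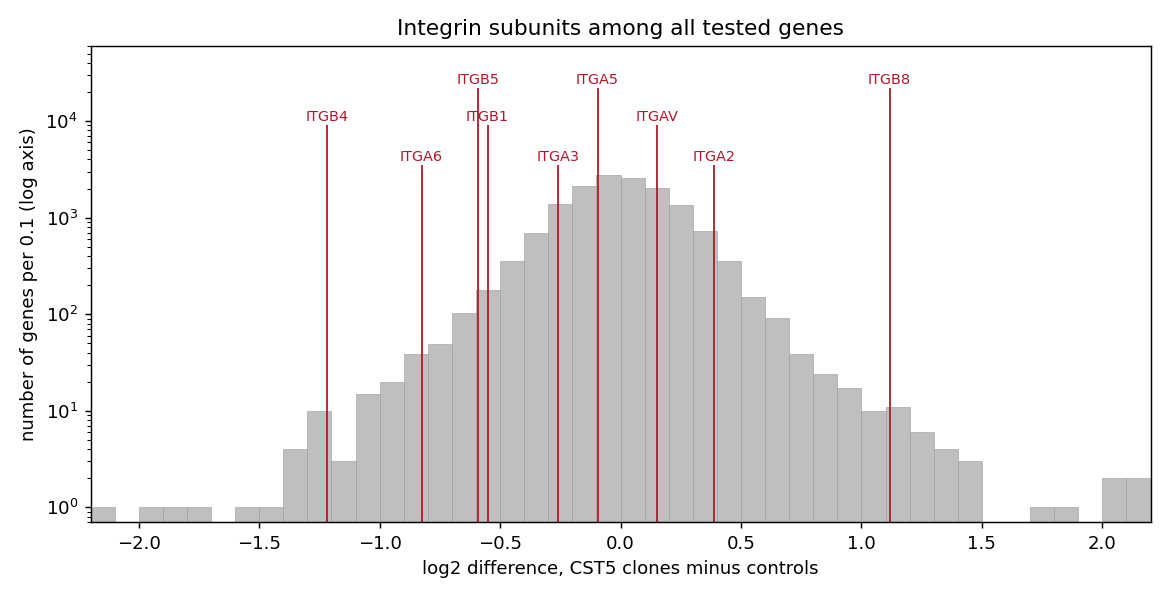
Number of tested genes (vertical axis, log scale) by log2 difference of the CST5 clones minus the controls (horizontal axis), with the 9 tested integrin subunits marked as red lines whose heights carry no value; 4 genes lie beyond the drawn range. ITGB4 at -1.22, ITGA6 at -0.83 and ITGB8 at 1.12 lie in the sparse tails, and ITGA5 at -0.10 and ITGAV at 0.15 in the bulk.

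The controls also differed from each other. Mock read below un-transfected cells in all 9 tested members, where 48.8% of tested genes did, and in ITGB6 as well. The median mock minus un-transfected difference was -0.30 on the log2 scale over the 9 members and 0.0036 over all genes. Apart from ITGB8 at -0.93, the members ranged from -0.53 for ITGA3 and -0.44 for ITGB5 to -0.08 for ITGAV. Only ITGB8 reached 1.5-fold here, where 1.04% of genes were at least 1.5-fold below and 0.304% were as far below as ITGB8. No member was 1.5-fold above, where 0.654% of genes were. Un-transfected cells were the highest of the 4 lines in 6 of 9 members (ITGA3, ITGA5, ITGA6, ITGB1, ITGB4 and ITGB5), where 20.6% of all tested genes had their maximum. With 1 array per line, a difference between mock and un-transfected cells and one between their arrays cannot be told apart.

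The clones differed most in ITGB4, which was 2.98-fold higher in clone 20 than in clone 9, and next in ITGA2, 1.70-fold higher in clone 20. No other tested member reached 1.5-fold between the clones. Of all tested genes, 2.74% were at least 1.5-fold higher and 3.09% at least 1.5-fold lower in clone 20. As far apart in either direction as ITGB4 were 0.238% of genes, and as ITGA2 2.82%. ITGB1 was the only one of the 9 to read clearly lower in clone 20, by -0.49, and ITGA6 and ITGA3 read higher in clone 20 by 0.43 and 0.41. ITGAV, ITGB5 and ITGB8 differed between the clones by 0.022, -0.0025 and 0.0029, the members in which the clones were most alike.

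**Figure D4:**
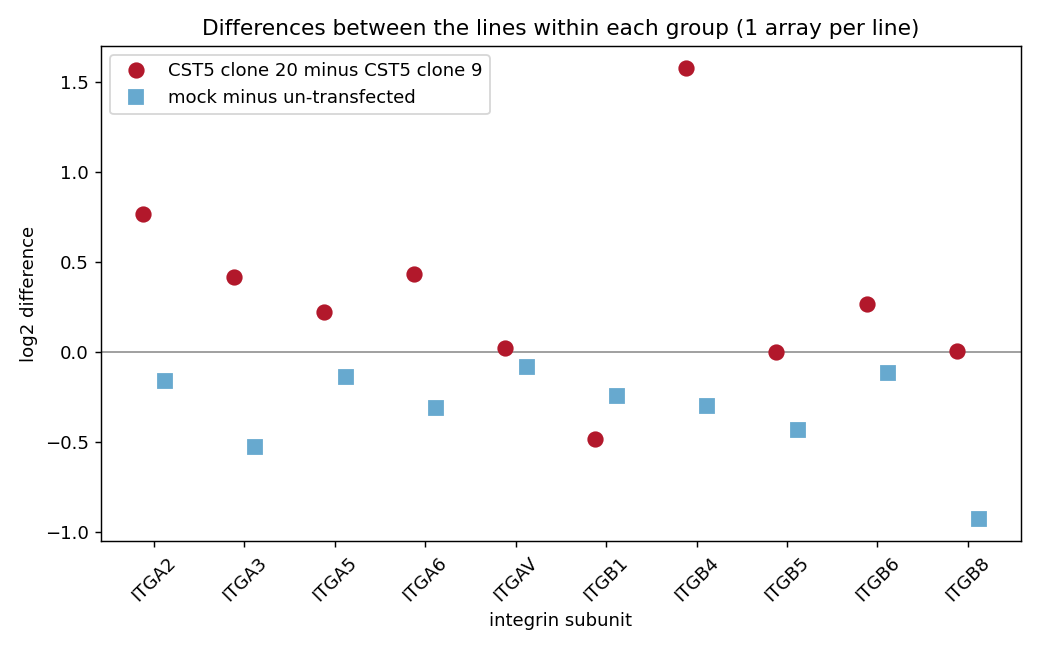
Log2 difference (vertical axis) between the lines within each group for the 10 integrin subunits, with circles for CST5 clone 20 minus CST5 clone 9 and squares for mock minus un-transfected cells, 1 array per line. All 10 squares lie below 0, and the circles run from -0.49 for ITGB1 to 1.58 for ITGB4.

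Profiles over the 4 lines were compared by the root mean square difference of the deviations from each gene's own mean, a description over 4 points. The profile of ITGB8 was nearest, among the 8 other members above the filter, to ITGA2, at 0.53, then ITGAV at 0.57 and ITGA5 at 0.67 on the log2 scale, and farthest from ITGB4, at 1.31. ITGB1 and ITGB5 were 0.18 apart, ITGA6 and ITGB5 0.20. Subunits that differ little between lines, such as ITGA5 and ITGAV at 0.14, are close by this measure for that reason alone.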

How the data were processed

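The authors deposited 1 table with 24916 Ensembl gene identifiers and 1 column per array, read here as log2 expression because of its range; the log base is not stated. RNA input was 100 ng per line, amplified and biotin-labelled for Affymetrix GeneChips, per the labels' protocols. For the array model, background correction, summarisation and normalization, nothing is stated (not given in the sources used here). Member names came with the list of identifiers chosen for this description. Of the table's identifiers, 0 matched the Ensembl column of the RefSeq gene table, so the 10 other lists planned (6 of the integrin pathway, 4 of cell type markers) were not tested. The test was limma 3.58.1 in R 4.3.3 (2 residual and 3.26 prior degrees of freedom), with the CST5 clones against the controls. It was also run on data simulated from its own fitted variances. Those data hold no effect of line or clone, so they cannot show how the test performs with 1 array per line. The filter, threshold and adjustment stand with the results. All 10 members are named; profile likeness was ranked for ITGB8, whose clones stood clear of both controls by the widest margin, among named genes above the filter. Members and lists were chosen with earlier results of these data known. Alternatives were median centring, quantile normalization, cyclic loess, no filter, a filter at the 60th percentile, a trend or robust prior, and leaving out each array. Figures used matplotlib 3.10.9.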

Additional observations from a re-analysis of the deposited data

Results flagged for a closer look

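ITGB6 was the only member for which the clones lay on opposite sides of both controls, with clone 20 above them and clone 9 below them, 0.26 apart on the log2 scale (clone 20 minus clone 9). Clone 9 minus mock was -0.020, all of its values were below the filter on dim genes, and the difference was not tested.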

How the results depend on the processing

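No member passed the adjusted threshold in limma under any alternative, including those with any 1 array left out (0 to 0). The number of members whose clone values did not overlap the controls, 6 of 9 beside 48.4% of all tested genes, stayed within 6 to 7 under other scalings and filters and was 7 to 8 with 1 array left out, where fewer values must agree. The number at least 1.5-fold apart in all clone-to-control differences, 1, was 0 with each array centred on its median, and 1 to 3 with 1 array left out, again with fewer differences to pass. Over all single-member values, 97 kept their direction and 2 did not: ITGA5 ranged from -0.21 to 0.016 with 1 array left out, above 0 without clone 9, and ITGA3 from -0.52 to 0.0064, above 0 without un-transfected cells; the cause was not tested. Relative to their size, scaling moved the small differences most: ITGA5 was -0.18 after median centring and -0.027 after quantile normalization, ITGAV 0.063 and 0.22, and ITGA3 -0.16 after cyclic loess. On the log2 scale the large differences moved by similar amounts: ITGB4 was -1.31 after median centring and -1.13 after quantile normalization. The median over all tested genes was -0.094 after median centring, against -0.0056 without it. With 1 array left out, the remaining array of that group takes its spread from the other group. The lists of pathway genes were not run for lack of names. No paired analysis was possible because each line has 1 array and nothing in the labels links a clone to a control. Background was not measured, which limits ITGB6 and the ITGB8 value of mock.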
